A study of Mus musculus with 11 samples.

Results

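The 39 genes described here are markers of macrophages and monocytes, measured in fibroblasts from which cells carrying the macrophage antigen F4/80, the product of Adgre1, had been sorted out. The members were taken from a list of names, and a probe set was used where its only gene symbol was a member. All 39 were measured, each by 1 probe set, among 19938 genes in all. The samples were 11 arrays (Affymetrix, Mouse Gene 1.0 ST), each made from the sorted fibroblasts of 1 cohort of several female mice on the FVB/n background. Normal mammary glands came from non-transgenic mice aged 8 weeks (2 arrays, D2 and D5). The other 3 stages came from MMTV-PyMT mice, in which a mammary tumour virus promoter drives the polyoma middle T oncogene in the mammary epithelium: hyperplasia at 4 weeks (3 arrays, D6, D7 and D12), carcinoma at 9 weeks (3 arrays, D3, D4 and D10) and advanced carcinoma at 12 weeks (3 arrays, D8, D9 and D11). Living cells were sorted as positive for CD140a (PDGFRα) and negative for F4/80, and the labels add negative for the epithelial protein EpCAM. The leukocyte protein CD45, encoded by Ptprc, was not among the markers of this sort. Carcinoma and advanced carcinoma together (6 arrays) are called cancer-associated fibroblasts (CAFs), and were set against the 5 arrays of normal glands and hyperplasia.

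Macrophages are phagocytes that settle in tissues before birth or arise from blood monocytes. They depend on signals through the receptor Csf1r and on the transcription factor PU.1, encoded by Spi1, which binds purine-rich sites in the promoters of many myeloid genes. In the mammary gland they lie along ducts and in the stroma, and in PyMT tumours they are abundant around the epithelium. Their surface carries Fc receptors, lectins, scavenger receptors and the integrin CD11b, and they secrete complement C1q and lysozyme. Some markers are less restricted, among them Apoe, Lyve1 and Gpnmb, which are also made by other cells. Ptprc and Laptm5 are made by most leukocytes, lymphocytes included.

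Values are log2 expression, and a difference of 1 is a fold change of 2.0. The medians of the arrays lay between 5.28 and 5.39. Normal D2 and advanced carcinoma D11 were not independent of the rest, because in each probe set the sum of both was 2 times the mean of the 9 remaining arrays, within 0.000144. A gene that is high in D2 is therefore low in D11 by construction, and counts are also given with a term for both arrays and without them. Each stage also had its own age, so stage and age cannot be told apart.

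The promoters of 4 members are shown because their genes represent the patterns described further on: C1qb, C1qc and Lyz2 were higher in CAFs, and Ptprc was not. Each sequence is the 250 bases before a start of the gene in RefSeq (build GRCm38.p6), read in the direction of transcription. Ptprc had 2 promoters, of which 1 is shown, and C1qb, C1qc and Lyz2 had 1 each. Capitals mark the core AGGAAG of the purine-rich element that PU.1 is known to bind, or its complement CTTCCT, and in C1qc also the longer GAGGAAGT, which contains the core, as its complement.
C1qb promoter, chr4:136886201-136886450, minus strand: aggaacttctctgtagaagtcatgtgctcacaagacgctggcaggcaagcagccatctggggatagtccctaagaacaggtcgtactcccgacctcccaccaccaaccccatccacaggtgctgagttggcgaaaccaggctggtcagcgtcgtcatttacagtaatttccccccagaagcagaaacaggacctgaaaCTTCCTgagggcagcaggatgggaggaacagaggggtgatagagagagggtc
C1qc promoter, chr4:136892915-136893164, minus strand: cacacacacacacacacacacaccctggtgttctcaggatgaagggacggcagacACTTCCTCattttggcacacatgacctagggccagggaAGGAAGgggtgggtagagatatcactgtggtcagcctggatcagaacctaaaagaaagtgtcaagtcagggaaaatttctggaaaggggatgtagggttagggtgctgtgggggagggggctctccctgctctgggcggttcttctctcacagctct
Lyz2 promoter, chr10:117282273-117282522, minus strand: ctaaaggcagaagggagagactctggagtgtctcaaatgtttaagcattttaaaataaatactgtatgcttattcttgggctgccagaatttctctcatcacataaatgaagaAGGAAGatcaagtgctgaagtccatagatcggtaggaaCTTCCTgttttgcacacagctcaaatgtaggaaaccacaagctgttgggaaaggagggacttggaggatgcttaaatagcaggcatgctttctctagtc
Ptprc promoter, chr1:138175306-138175555, minus strand: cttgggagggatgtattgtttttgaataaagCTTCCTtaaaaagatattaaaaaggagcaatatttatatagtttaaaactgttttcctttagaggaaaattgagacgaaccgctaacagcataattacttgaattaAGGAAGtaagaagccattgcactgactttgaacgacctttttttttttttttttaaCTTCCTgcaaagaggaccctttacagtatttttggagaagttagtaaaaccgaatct

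RefSeq promoters were at hand for 28 of the 39 members. The core AGGAAG was found on either strand in 15 of the 28 (53.6%), against 32.3% of 27025 genes with a promoter of the same length. Among members called higher in CAFs it was present in 10 of 19 (52.6%), and among members not called in 5 of 9 (55.6%). Its share was thus alike in members that were called and in members that were not. The longer GAGGAAGT was found in C1qc alone, which is 3.57% of members against 2.79% of all genes. A match describes the letters of the promoter and does not show that a factor binds there.

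Although F4/80-positive cells had been sorted out, Adgre1 was 5.0-fold higher in CAFs than in the other arrays, and most macrophage genes were higher with it. Of the 39 members, 27 were called higher in CAFs and 0 lower by limma at an adjusted p under 0.05, against 12% of all genes called higher and 12.8% called lower. The median difference of the members was 1.36, against -0.04 over all genes, and single members ranged from -0.82 for Ptprc to 2.83 for Lyz2. All members of the C1q, Fc receptor and Tyrobp-Trem2 groups were called, and neither of the pan-leukocyte genes was. In bulk samples of this kind, more cells of a type and more RNA per cell cannot be told apart. The count fell to 17 without hyperplasia D6, without hyperplasia D7 or without advanced carcinoma D8, and it was 21 with the term for D2 and D11 and 28 without both arrays.

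**Figure D1:**
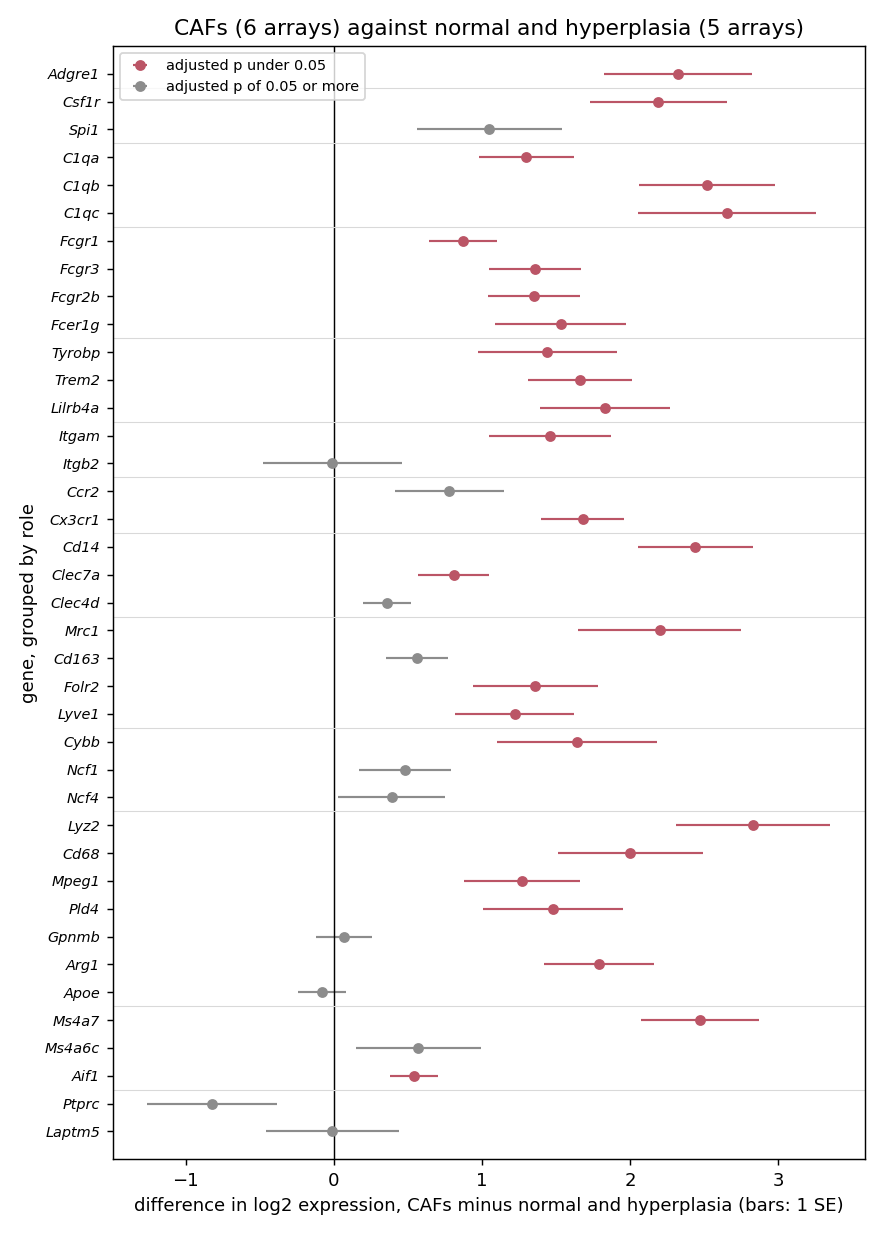
Difference in log2 expression between the 6 CAF arrays and the 5 arrays of normal and hyperplasia for the 39 members (horizontal axis; bars, 1 standard error from limma), grouped by role. The 27 members in red had an adjusted p under 0.05, and the largest differences were those of Lyz2 (2.83) and C1qc (2.65), while Ptprc had the lowest (-0.82).

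Adgre1 itself measured 5.07 and 3.79 in the normal arrays D2 and D5, and 3.73, 3.87 and 4.25 in hyperplasia (D6, D7 and D12). It measured 5.48, 7.23 and 5.18 in carcinoma (D3, D4 and D10) and 7.49, 7.66 and 5.74 in advanced carcinoma (D8, D9 and D11). The groups did not overlap, but 3 arrays, D4, D8 and D9, stood well above all the others. The difference in limma was 2.32 ± 0.50 (SE) with an adjusted p of 0.00719. In normal and hyperplasia every value lay below the median of its array. The deposited values carry no detection call for such low levels, so the fold change of dim members may be understated.

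The same 3 arrays were the highest in most of the list. D4, D8 and D9 were the highest 3 of the 11 arrays in 34 of the 39 members. These included all 27 called members, though a call in CAFs itself favours CAF arrays at the top. The share of all genes was not counted for this order, nor for the highest, lowest and within-stage orders below. D9 was the highest array in 26 members, and D6 the lowest in 26. All 6 CAF arrays lay above all 5 others in 10 members, against 7.77% of all genes. In 28 members normal D2 was above at least 1 of the CAF arrays D3, D10 and D11. Within carcinoma, D4 exceeded the mean of D3 and D10 in 39 of 39 members, by a median of 1.36. Within the normal pair, D2 exceeded D5 in 37 members, by a median of 1.14, and within hyperplasia D12 exceeded the mean of D6 and D7 in 35, by a median of 0.55. The gap within carcinoma, where neither tied array is used, was therefore of the same size as the median difference between CAFs and the others. The gap within hyperplasia was smaller. D2 is tied to D11 and the rest, so its gap to D5 and its count of 28 do not measure a free spread between cohorts.

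**Figure D2:**
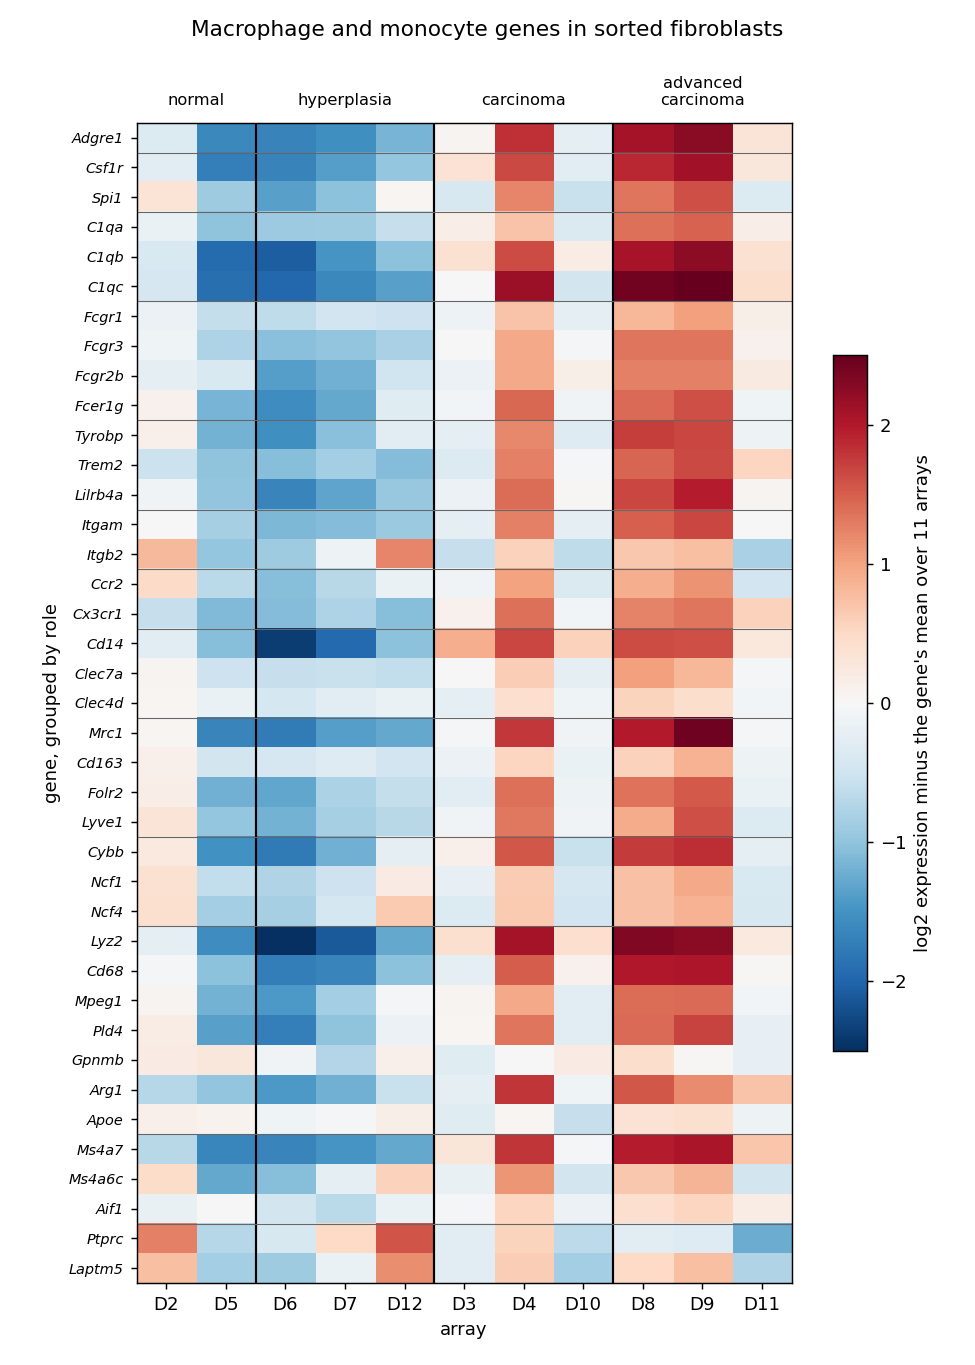
Log2 expression of the 39 members (rows, grouped by role) in the 11 arrays (columns, grouped by stage), shown as the difference from each gene's mean over the arrays, red above and blue below, with the colour scale ending at 2.5 in either direction. D4, D8 and D9 are the highest 3 arrays in 34 members, and Itgb2, Ptprc and Laptm5 peak in D12 instead.

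Of the pair that sets the lineage, the receptor gene was called and the transcription factor gene was not. Csf1r, which encodes the receptor for colony stimulating factor 1 and interleukin 34, measured 5.70 and 4.28 in normal glands and 4.32, 4.61 and 5.02 in hyperplasia. It measured 6.34, 7.63 and 5.69 in carcinoma and 7.86, 8.08 and 6.26 in advanced carcinoma. The groups overlapped only at normal D2 and carcinoma D10, which were 0.01 apart, and the difference was 2.19 ± 0.46 (SE, limma, adjusted p = 0.00674). Spi1 averaged 6.99 ± 1.01 (SD, n = 6) in CAFs and 5.94 ± 0.73 (SD, n = 5) in the others. Its difference of 1.05 had a limma adjusted p of 0.14.

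The 3 genes for the chains of C1q, the molecule that starts the classical complement pathway and is made largely by macrophages, were all called higher. C1qb measured 6.18 and 4.64 in normal glands, 4.51, 5.09 and 5.55 in hyperplasia, 6.95, 8.20 and 6.75 in carcinoma, and 8.63, 8.81 and 6.96 in advanced carcinoma. Every CAF array lay above every other array, with a difference of 2.52 ± 0.46 (SE, limma, adjusted p = 0.00303). C1qc was higher by 2.65 and C1qa by 1.30. In both of these the groups overlapped, C1qc because D2 (5.22) was above D10 (5.19) and C1qa because D2 (6.62) was above D10 (6.43).

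All 4 Fc receptor genes were called higher, which take up or sense antibody-coated particles. Fcgr3, the low-affinity receptor CD16, measured 5.09 and 4.43 in normal glands and 4.15, 4.21 and 4.39 in hyperplasia, against 5.19, 6.15 and 5.17 in carcinoma and 6.53, 6.54 and 5.30 in advanced carcinoma. Its groups did not overlap, though D2 came within 0.1 of the lowest CAF array, and its difference was 1.36 ± 0.31 (SE, limma, adjusted p = 0.00939). The inhibitory receptor gene Fcgr2b was higher by 1.35, the common signalling chain gene Fcer1g by 1.53 and the high-affinity receptor gene Fcgr1 by 0.87. The extracellular parts of Fcgr3 and Fcgr2b are similar in sequence, and how far their probes tell them apart was not tested.

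Trem2, a lipid-sensing receptor, and Tyrobp, the adaptor that carries its signal, were called higher together with the inhibitory receptor gene Lilrb4a. Trem2 measured 4.85 and 4.39 in normal glands and 4.33, 4.55 and 4.32 in hyperplasia. It measured 5.06, 6.65 and 5.36 in carcinoma and 6.85, 7.05 and 5.94 in advanced carcinoma. The groups did not overlap, and the difference was 1.66 ± 0.35 (SE, limma, adjusted p = 0.00638). Lilrb4a was higher by 1.83 and Tyrobp by 1.44 (limma, adjusted p = 0.0455). The call of Tyrobp was lost in 10 of 21 alternative settings, and Lilrb4a has a near-identical neighbour that its probes may also detect.

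The integrin genes parted. Itgam, which encodes CD11b, measured 5.17 and 4.34 in normal glands, 4.04, 4.08 and 4.24 in hyperplasia, 4.94, 6.42 and 4.94 in carcinoma and 6.67, 6.84 and 5.16 in advanced carcinoma. D2 was above 3 CAF arrays, and the difference was 1.46 ± 0.41 (SE, limma, adjusted p = 0.0238). Itgb2 encodes CD18, the partner chain that CD11b shares with integrins of lymphocytes. It measured 7.99 and 6.21 in normal glands, 6.29, 7.05 and 8.40 in hyperplasia, 6.61, 7.77 and 6.55 in carcinoma and 7.85, 7.93 and 6.38 in advanced carcinoma. Its highest values were in D12 and D2, and its difference was -0.01 ± 0.47 (SE, limma, adjusted p = 0.993), with a sign that changed when D2, D12, D3, D10 or D11 was left out.

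Of the chemokine receptors that guide monocytes, the fractalkine receptor gene Cx3cr1 was called and Ccr2 was not. Cx3cr1 measured 4.85 and 4.33 in normal glands, 4.34, 4.66 and 4.37 in hyperplasia, 5.54, 6.81 and 5.35 in carcinoma and 6.66, 6.77 and 6.0 in advanced carcinoma. The groups did not overlap, and the difference was 1.68 ± 0.28 (SE, limma, adjusted p = 0.00194). Ccr2, the receptor by which inflammatory monocytes leave the bone marrow, averaged 6.11 ± 0.74 (SD, n = 6) in CAFs and 5.33 ± 0.60 (SD, n = 5) in the others, a difference of 0.78 (limma, adjusted p = 0.148).

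Among the receptors for microbial products, Cd14, the co-receptor for lipopolysaccharide, measured 6.52 and 5.72 in normal glands and 4.41, 4.84 and 5.75 in hyperplasia. It measured 7.68, 8.46 and 7.36 in carcinoma and 8.42, 8.39 and 7.04 in advanced carcinoma. The groups did not overlap, and the difference of 2.44 ± 0.39 (SE) had the smallest limma adjusted p of all members, 0.00167. Luminal epithelial genes were also higher in CAFs, and the part of such cells in the values of Cd14 was not tested. The beta-glucan receptor gene Clec7a was higher by 0.81 (limma, adjusted p = 0.0301). Clec4d differed by 0.36 and did not pass (limma, adjusted p = 0.112).

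Of 4 receptors typical of resident macrophages, 3 were called. Mrc1, the mannose receptor CD206, measured 6.13 and 4.43 in normal glands, 4.34, 4.71 and 4.81 in hyperplasia, 6.05, 7.86 and 5.99 in carcinoma and 8.07, 8.52 and 6.04 in advanced carcinoma. D2 exceeded 3 of the 6 CAF arrays, and the difference was 2.20 ± 0.55 (SE, limma, adjusted p = 0.0147). The folate receptor gene Folr2 was higher by 1.36 (limma, adjusted p = 0.0357) and the hyaluronan receptor gene Lyve1, also a marker of lymphatic endothelium, by 1.22 (limma, adjusted p = 0.0455). Both of these calls were lost in 10 alternative settings. Cd163, the haemoglobin scavenger receptor, differed by 0.56 (limma, adjusted p = 0.0722).

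The phagocyte NADPH oxidase makes superoxide from a membrane core and cytosolic subunits. Cybb, which encodes the catalytic core, measured 8.09 and 6.34 in normal glands, 6.08, 6.64 and 7.63 in hyperplasia, 7.97, 9.40 and 7.30 in carcinoma and 9.59, 9.69 and 7.61 in advanced carcinoma. D2 and D12 lay within the range of the CAFs. The difference was 1.64 ± 0.54 (SE, limma, adjusted p = 0.0473), and the call was lost in 11 of 21 alternative settings. The cytosolic subunit genes differed by 0.48 (Ncf1, limma, adjusted p = 0.281) and 0.39 (Ncf4, limma, adjusted p = 0.465).

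Lyz2, which encodes the lysozyme of macrophages and granulocytes, had the largest difference of the 39 members. It measured 8.81 and 7.51 in normal glands, 6.51, 6.95 and 7.77 in hyperplasia, 9.46, 11.14 and 9.47 in carcinoma and 11.36, 11.31 and 9.30 in advanced carcinoma. Every CAF array was above every other array, and Lyz2 was 7.13-fold higher (2.83 ± 0.52 SE, limma, adjusted p = 0.0035). Of the other 6 genes for lysosomal and effector proteins, 4 were called higher: the endosomal glycoprotein gene Cd68 by 2.0, the arginine-degrading enzyme gene Arg1 by 1.79, the endosomal nuclease gene Pld4 by 1.48 and the pore-forming protein gene Mpeg1 by 1.27. Arg1 was also without overlap between the groups, at 5.55 to 7.57 in CAFs and 4.35 to 5.24 in the others. The other two did not pass. Gpnmb averaged 7.77 ± 0.27 (SD, n = 6) in CAFs and 7.71 ± 0.41 (SD, n = 5) in the others, and Apoe, the lipid carrier, 11.07 ± 0.38 and 11.15 ± 0.11.

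Ms4a7, a membrane protein gene of macrophages, measured 4.75 and 3.80 in normal glands, 3.78, 3.97 and 4.16 in hyperplasia, 5.73, 7.22 and 5.39 in carcinoma and 7.39, 7.48 and 6.12 in advanced carcinoma. The groups did not overlap, and the difference was 2.47 ± 0.40 (SE, limma, adjusted p = 0.00177). Aif1, the actin-binding protein Iba1, was higher by 0.54 (limma, adjusted p = 0.0292). Ms4a6c differed by 0.57 (limma, adjusted p = 0.346), with D2 (9.26) and D12 (9.38) above 2 of the 3 carcinoma arrays, and its probes may also detect close relatives.

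The 2 pan-leukocyte genes followed another order of arrays. Ptprc measured 10.10 and 8.14 in normal glands, 8.45, 9.35 and 10.42 in hyperplasia, 8.58, 9.41 and 8.19 in carcinoma and 8.56, 8.52 and 7.60 in advanced carcinoma. Its highest values were those of D12 and D2, and its lowest that of D11. The difference was -0.82 ± 0.44 (SE, limma, adjusted p = 0.191). Laptm5, a lysosomal protein of blood cells, measured 9.60 and 8.01 in normal glands, 7.96, 8.69 and 10.02 in hyperplasia, 8.56, 9.47 and 8.00 in carcinoma and 9.34, 9.60 and 8.10 in advanced carcinoma. It too was highest in D12, and its difference was -0.01 ± 0.45 (SE, limma, adjusted p = 0.987).

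Adgre1 and Ptprc were set against each other within arrays, a contrast chosen after their values had been seen. It is given as a description and without a p-value, because the choice of the pair already favours a large difference. The value of Adgre1 minus that of Ptprc was 3.14 higher in CAFs than in the other arrays, and 3.14 higher without D2 and D11. Leaving out each array in turn gave differences of 2.88 to 3.36.

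**Figure D3:**
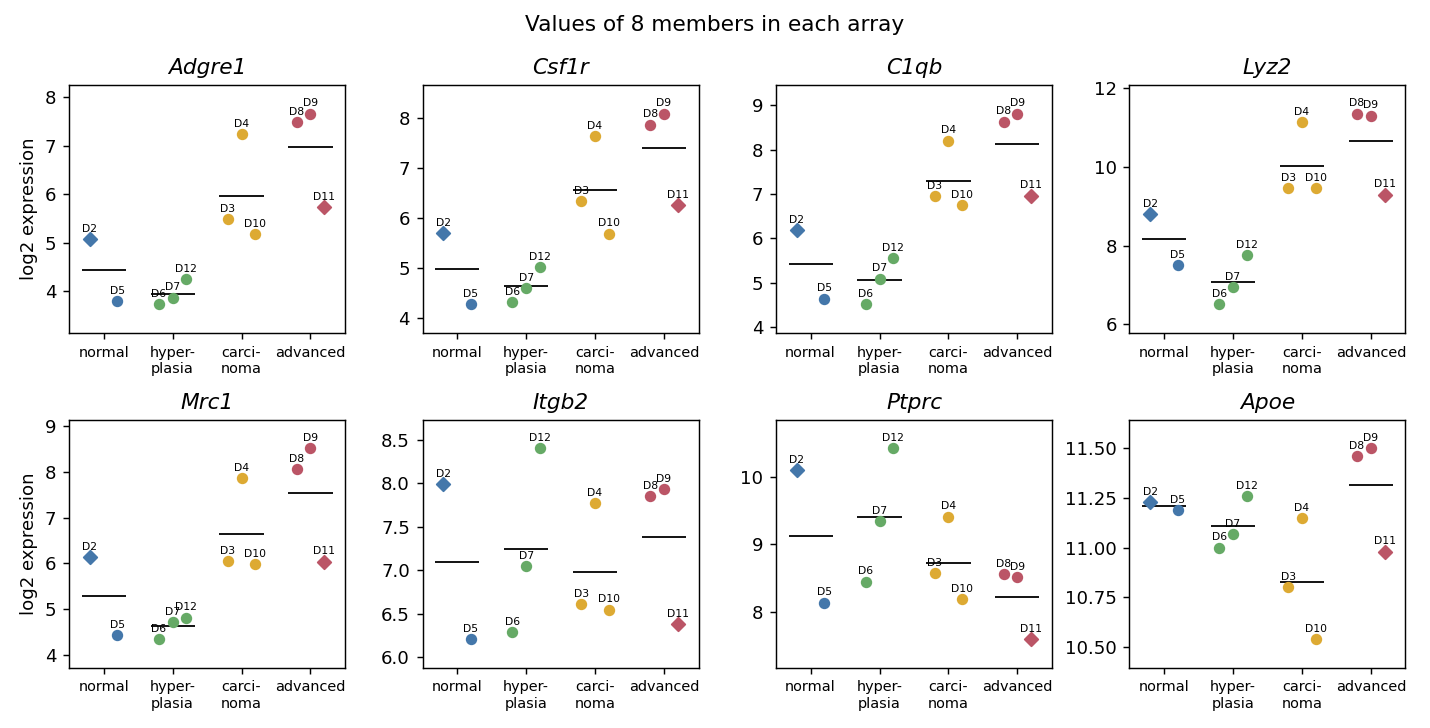
Log2 expression of 8 members in each array, by stage (points, 1 array each, labelled; diamonds, the tied arrays D2 and D11; lines, stage means; each panel has its own vertical range). Adgre1 runs from 3.73 to 5.07 in normal and hyperplasia and from 5.18 to 7.66 in CAFs, whereas Ptprc is highest in D12 (10.42) and D2 (10.10).

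Between single stages, most members were called in advanced carcinoma against hyperplasia. In that comparison 20 of 39 members were called higher and 0 lower by limma, against 8.52% and 6.01% of all genes, with a median difference of 1.87. Lyz2 was higher by 3.58, C1qc by 3.49, C1qb by 3.09, Ms4a7 by 3.03 and Adgre1 by 3.01 (limma, adjusted p = 0.0168). The 20 also included Csf1r, Cd14, Cd68, Mrc1, Trem2, Arg1, Itgam and 3 Fc receptor genes, but not Spi1, Tyrobp, Cybb or the pan-leukocyte genes. The count was sensitive to single arrays: it was 8 without D6, 7 without D7, 4 without D8 and 3 without D9. Calls over all genes fell too, to 4.76%, 3.96%, 3.25% and 3.04% higher in the same order.

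In carcinoma against hyperplasia, 4 members were called higher and 0 lower, against 4.89% and 4.37% of all genes. These were Cd14 (2.83, limma, adjusted p = 0.0125), Lyz2 (2.95, limma, adjusted p = 0.0313), Ms4a7 (2.14, limma, adjusted p = 0.0352) and Cx3cr1 (1.44, limma, adjusted p = 0.0419). Adgre1 was 2.02 higher without passing (limma, adjusted p = 0.084). The count became 0 without D6 (1.12% of all genes higher), and 1 without D7 (1.78%) or D3 (3.92%). It became 2 without D4 (4.04%), D8 (3.14%) or D9 (3.31%), and 9 without D11 (4.14%). It was 1 with the term for D2 and D11 (3.26%).

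In advanced carcinoma against normal glands, 3 members were called higher and 0 lower, against 3.9% and 1.71% of all genes. They were Ms4a7 (2.73, limma, adjusted p = 0.0328), Cx3cr1 (1.89, limma, adjusted p = 0.0343) and Trem2 (1.99, limma, adjusted p = 0.0416). The median difference of the members was 1.47, and Adgre1 differed by 2.53 ± 0.72 (SE, limma, adjusted p = 0.076). The count was 0 with the term for D2 and D11 (1.62% of all genes higher). It was also 0 without D6 (2.6%), D7 (2.51%), D8 (0.742%) or D9 (0.582%), 14 without D4 (9.65%) and 10 without D11 (2.35%). Leaving out D2, D5 or both tied arrays left 1 normal array, so no count is given for those fits.

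In carcinoma against normal glands, 0 members were called in either direction by limma, against 0.792% of all genes called higher and 0.145% lower. At an unadjusted p under 0.05, 7 of 39 members were higher, against 8.55% of all genes higher: C1qb, Cd14, Lyz2, Ms4a7, Cx3cr1, Arg1 and Trem2. One-way contrasts without moderation, at the same adjusted threshold, gave 0 calls as well, and so did limma with array weights. The methods' cutoff, p under 0.05 with a fold over 1.5, gave 7 members on unadjusted limma p-values, against 4.53% of all genes higher.

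Between hyperplasia and normal glands no gene passed the test. By limma 0 members were called in either direction, as were 0.0% of all genes, and 0 members had an unadjusted p under 0.05 (4.22% of all genes). One-way contrasts without moderation, at an adjusted p under 0.05, and limma with array weights also gave 0 calls. The members' median difference was -0.36, and 5 of 39 were above 0, against a median of 0.01 and 10934 of 19938 over all genes. Cd14 had the lowest difference, -1.12 (limma, adjusted p = 0.999).

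Between advanced carcinoma and carcinoma no gene passed either. By limma 0 members were called, as were 0.0% of all genes in either direction, and at an unadjusted p under 0.05 there was 1 member, Apoe, higher by 0.48, against 3.6% of all genes higher. Differences were above 0 in 38 of 39 members, with a median of 0.60, against 10787 of 19938 genes and a median of 0.01. Adgre1 differed by 1.0 ± 0.65 (SE, limma, adjusted p = 0.893). Without moderation, one-way contrasts at an adjusted p under 0.05 gave 0 calls. When limma gave each array its own weight, 16 members were called higher, against 4.58% of all genes in that setting.

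Lists of other myeloid genes were more mixed than the members in CAFs against the other arrays, for which all genes gave 12% higher and 12.8% lower. Of 8 ligands that recruit or maintain macrophages, 4 were called higher and 0 lower, and those named were the fractalkine gene Cx3cl1 (1.62) and the chemokine genes Ccl8 (1.40) and Ccl2 (1.89). The macrophage growth factor genes Csf1 and Il34 were not called, at -0.48 and -0.24. Of 10 scavenger and efferocytosis receptors, 4 were called higher, led by Msr1 (1.71), Stab1 (1.71) and Cd209f (2.14), and 2 lower. Of 9 lysosomal hydrolases and related proteins, which fibroblasts also make, 4 were called higher, led by Lipa (0.79), Ctsd (0.67) and Lgmn (0.77), and 1 lower. Of 9 transcription factors of the lineage, 3 were called higher and 2 lower, with Runx1 at 1.68, Cebpb at 0.78 and Maf at -1.02. Of 9 genes known from tumour macrophages, 3 were called higher and 1 lower, with the elastase gene Mmp12 at 1.82, Lgals3 at 0.92 and the lipoprotein lipase gene Lpl at -1.05. Of 6 monocyte genes measured, F13a1 was higher by 2.16 and Plac8 lower by 1.37.

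Markers of other cells moved with some of these results. The mean of the 39 members ranged from 6.25 to 7.83 in CAFs and from 5.23 to 6.49 in the others, with D9, D8 and D4 at the top. The mean of 12 luminal epithelial genes, Epcam among them, ranged from 8.55 to 9.71 in CAFs and from 6.11 to 7.73 in the others. It was also highest in D4, D8 and D9, and 11 of 12 genes were called higher, against 12% of all genes. The mean of 13 fibroblast genes ranged from 9.42 to 11.07 in CAFs and from 10.96 to 11.40 in the others. It was lowest in the same arrays, at 9.42 in D4, 10.68 in D8 and 10.72 in D9. Of these genes 2 of 13 were called lower, near the share of all genes, 12.8%. The part of these cells in the results of the macrophage genes was not tested.

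Lymphocyte genes, like Ptprc, were highest in D12 and D2. The mean of 9 genes of T and natural killer cells was 8.34 in D12 and 7.65 in D2, 5.98 to 6.96 in the other normal and hyperplasia arrays, and 5.24 to 6.75 in CAFs. Of these 9 genes, 4 were called lower in CAFs and 0 higher, against 12.8% and 12% of all genes. Among the 4 were Cd8a (-1.37), Cd2 (-1.48) and Cd4 (-1.39). The mean of 5 B cell genes was also highest in D12 (8.10) and D2 (7.76), with 3 called lower and 1 higher, Blnk (1.28), which luminal and myeloid cells can express too. The mean of 12 neutrophil genes ranged from 4.67 to 5.07 in CAFs and from 4.40 to 4.75 in the others, with Ltf called higher (2.91) and Ly6g lower (-0.24). Apart from Ltf, which is also a milk protein gene, the means of these genes were at most 5.13 in either group, under the medians of the arrays. The part of lymphocytes in the values of Ptprc, Laptm5 and Itgb2 was not tested.

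**Figure D4:**
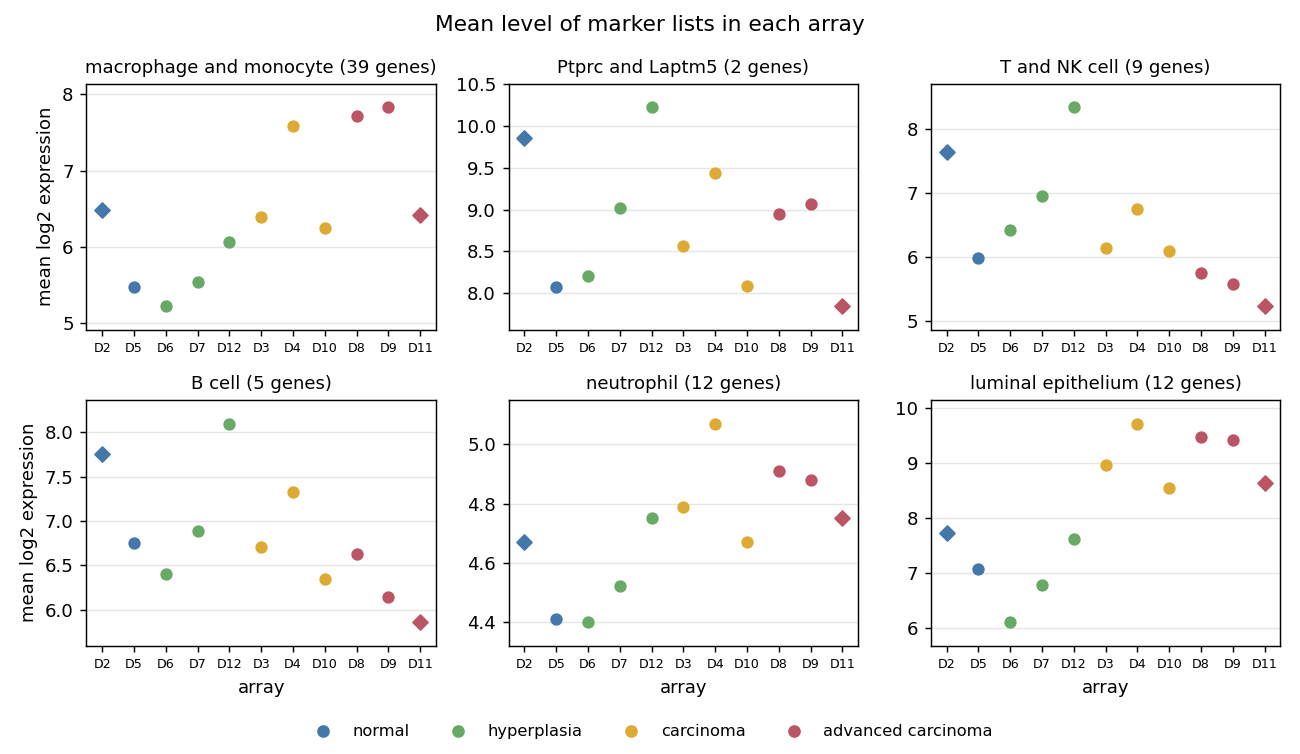
Mean log2 expression of 6 gene lists in each of the 11 arrays (points, coloured by stage; diamonds, the tied arrays D2 and D11; each panel has its own vertical range). The macrophage and luminal means are highest in D4, D8 and D9, while the T and NK cell mean is highest in D12 (8.34) and D2 (7.65).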

How the data were processed

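The authors normalised the Affymetrix arrays by robust multi-averaging in Partek 6.5, per the labels and methods, and deposited log2 values for 35399 probe sets, which were used as given. The step that ties D2 and D11 to the other 9 arrays is not given in the sources used here. A probe set was named where its annotation gave 1 symbol (21789; 1621 had several and 11989 none here), and the brightest of each gene was kept. Stages were compared with limma 3.58.1 (R 4.3.3) over all 11 arrays with 4 stages, CAFs with the others in a fit of 2 groups, and p-values were adjusted by Benjamini-Hochberg over 19938 genes within each of 7 comparisons. The pipeline was tested on simulated data. Spread is between cohorts, and the number of arrays limits the precision.

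Values in every array were given for Adgre1, for the member of each role with the smallest p in the CAF comparison and for the 2 members with the smallest difference. Of each other list at most 3 genes were named by smallest p, apart from Csf1, Il34, Epcam and Itgax, which were added with their values known. The members and lists were chosen with earlier results of these data known. The alternatives were median-centred arrays, quantile normalisation, genes dimmer than the median (5.64) removed, all probe sets tested, and limma-trend with robust estimates. One-way contrasts without moderation, the methods' test, were also run, here with adjusted p-values. Others were array weights, a term for D2 and D11, both left out, arrays of 2 stages only, and each array left out in turn. The methods' cutoff, p under 0.05 with a fold over 1.5, was applied to unadjusted limma p-values. Leaving out single arrays for Adgre1 minus Ptprc was added after seeing the data. Promoters were read from a RefSeq table (32851 promoters of 27025 genes), both strands were searched, and matches were counted by gene.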

Additional observations from a re-analysis of the deposited data

Results flagged for a closer look

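In the group of 5 normal and hyperplasia arrays, 4 members had 1 value far from the other 4, and all were in normal D2. Mrc1 was 6.13 in D2 and at most 4.81 elsewhere in the group, Itgam 5.17 against 4.34, Clec7a 4.85 against 4.27, and Cd163 4.83 against 4.37. These are 4 of 78 groups examined, and chance alone flags about 1 in 20 independent groups from a single population. The genes share the same arrays and each group joins different stages, so that rate is only a rough guide. D2 is 1 of the 2 arrays tied to the rest. Among CAFs no member had such a value.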

How the results depend on the processing

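Of the 27 members called higher in CAFs, 17 were called under every alternative in which they were tested. Among the 17, Adgre1, Fcgr1, Fcgr3, Trem2, Cx3cr1 and Ms4a7 were too dim to be tested with dim genes removed. The other 10 were lost under at least 1 alternative: Fcer1g, Tyrobp, Itgam, Clec7a, Folr2, Lyve1, Cybb, Mpeg1, Pld4 and Aif1. The causes were not tested, apart from the removal of dim genes, which left 27 members to test. With dim genes removed, 17 were called in CAFs (15.3% of the genes left), which are not the same 17 as above. That setting gave 12 in advanced carcinoma against hyperplasia (10.6%) and 1 against normal glands (4.88%). With one-way contrasts, advanced carcinoma gave 9 against hyperplasia (5.53% of all genes) and 0 against normal glands (0.808%), and carcinoma 1 against hyperplasia (2.19%). In CAFs, 9 members lost their call with one-way contrasts (10.6% of all genes higher) and 9 with array weights (13.9%). Array weights gave 24 for advanced carcinoma against normal glands (11.4% of all genes higher), 32 against hyperplasia (15.4%) and 16 against carcinoma (4.58%). They also gave 1 member lower in CAFs, Ptprc (limma, adjusted p = 0.0311), against 15.3% of all genes lower. The adjusted p of Ptprc ranged from 0.0311 to 0.514 over its alternatives. With the term for D2 and D11, advanced carcinoma against normal glands gave 0 (1.62%) and carcinoma against hyperplasia 1 (3.26%). Carcinoma against hyperplasia gave 0 on the arrays of these stages only (0.0%). An unadjusted p under 0.05 with a fold over 1.5 gave 7 for carcinoma (4.53%) and 21 for advanced carcinoma against normal glands (6.59%), and 21 for carcinoma against hyperplasia (5.59%). Leaving out each array in turn gave 17 to 28 in CAFs (9.49% to 13.1% of all genes higher). It gave 3 to 29 for advanced carcinoma against hyperplasia (3.04% to 13.4%) and 0 to 9 for carcinoma against hyperplasia (1.12% to 6.33%). For advanced carcinoma against normal glands it gave 0 to 14 (0.582% to 9.65%) with D2 and D5 both kept. With both kept, 0 were called higher in the 3 other stage comparisons and 0 lower in all 7.

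Signs changed only in members with a difference near 0. With each array left out in turn, Itgb2 ranged from -0.25 to 0.29, Laptm5 from -0.24 to 0.28 and Apoe from -0.17 to 0.03. Itgb2 became 0.35 without D2 and D11, 0.19 without D2, 0.29 without D12, 0.11 without D3, 0.12 without D10 and 0.15 without D11. Laptm5 became 0.32, 0.17, 0.28, 0.04, 0.16 and 0.14 in the same order, and 0.07 with quantile normalisation. Gpnmb became -0.02 with median-centred arrays, -0.04 with array weights, -0.10 without D7 and -0.01 without D8. Apoe became 0.05 with quantile normalisation and 0.03 without D10. No paired analysis was possible because the stages share no replicate numbers.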

Other observations

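Dendritic, mast and endothelial genes completed the lists of other cells. Over all genes, 12% were called higher in CAFs and 12.8% lower. Of 10 dendritic cell genes 3 were called lower in CAFs, among them the migration receptor gene Ccr7 (-1.53), the growth factor receptor gene Flt3 (-0.55) and Zbtb46 (-0.29), and 1 was called higher, Itgax (0.99), which encodes CD11c and is also made by macrophages. The mean of these 10 genes ranged from 5.11 to 5.79 in CAFs and from 5.18 to 5.99 in the others. Of 7 mast cell genes, the protease genes Cpa3 (-1.81) and Tpsb2 (-0.50) were called lower, and Kit, which luminal progenitors also express, higher (2.30). The mast cell mean was highest in normal D2, at 6.88. Of 10 endothelial genes 1 was called, Tek (-1.72), and the mean ranged from 6.08 to 7.23 in CAFs and from 6.30 to 7.46 in the others.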
